A study of Mus musculus with 2 samples.

Results

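A set of 10 genes of blood vessel growth were examined in liver tumours of mice: the angiopoietin ligands Angpt1 and Angpt2, the Tie receptors Tek (Tie2) and Tie1, the ligand Vegfa with the VEGF receptors Kdr, Flt1 and Flt4, and the tip cell genes Esm1 and Apln. They were taken by symbol from the probe sets that name exactly 1 gene, 1 probe set for each of the 10, out of 19938 genes on the array. They were selected on their levels in both tumours, which were known when the set was drawn up, so what follows describes them and tests nothing. The study compared 1 wild-type (WT) hepatocellular carcinoma sample with 1 HLF-deficient sample. Both came after treatment with DEN, a chemical liver carcinogen. HLF is a PAR bZIP transcription factor of hepatocytes, and the question was which genes differ in tumours that arise without it. The kind of HLF allele, the strain, the age and how many tumours or animals each sample holds are not given in the sources used here. Below, each sample is called a tumour for short. With 1 array per genotype there are no replicates, no p-value can be given, and whether any difference exceeds the spread between tumours cannot be told.

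New vessels grow from endothelial cells, which line blood vessels. VEGF-A binds the receptor tyrosine kinases VEGFR2, made from Kdr, and VEGFR1, made from Flt1, a high-affinity receptor that also acts as a decoy; VEGF-C and VEGF-D bind VEGFR3, made from Flt4. Endothelial cells that lead a sprout, called tip cells, make Esm1, Apln and Angpt2, while Notch signalling keeps their followers as stalk cells. Angiopoietin-1, from mesenchymal cells around the vessel, activates Tie2 and stabilises vessels; angiopoietin-2, released by the endothelium itself, mostly opposes it and loosens the vessel wall. In normal liver the sinusoids are lined by a fenestrated endothelium that expresses Kdr and Flt4, and vessels of liver tumours often lose these sinusoidal traits.

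Levels are log2 RMA values, and each difference was taken as HLF-deficient minus wild-type. A gene counted as expressed when it reached a floor of 2.98 on at least 1 array, the 95th percentile of chemoreceptor genes, which liver does not use; 14575 genes did. A gene was called higher or lower at a log2 difference of 1 or more in size, that is 2-fold. Technical spread was gauged from genes with several probe sets: the differences of a gene's 2 brightest probe sets were compared over 739 genes, which gave an SD of 0.24 for a single probe set; this holds no spread between animals or tumours. Of all genes compared, the median difference was 0.07, the 5th percentile -0.51 and the 95th percentile 0.65. The targeted gene Hlf stood at 5.13 in the WT tumour against 3.79 without HLF, 2.54-fold lower. The tissue expressed all 9 measured hepatocyte markers, with a median difference of 0.04, from Cps1 at 0.12 to Alb at -0.15. On both arrays 7 of the 9 lay within 1.5 of the highest value of any probe set, a range in which arrays respond little, so this median says little about hepatocyte content.

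Of the 10 genes, 9 were expressed and Angpt1 lay below the floor on both arrays. Among these 9, 8 were higher in the HLF-deficient tumour and Tek was marginally lower. Of all genes compared, 58.2% were higher by any amount. By the 2-fold rule 4 were higher, Angpt2, Esm1, Flt4 and Flt1, and 0 were lower. Across all genes compared, 1.5% were higher by 2-fold (218 genes) and 0.364% were lower (53 genes). These shares are given for scale, since the genes were picked with this contrast in view. The median difference of the 9 genes was 0.80. Just inside the rule stood Flt1 at 1.09 and just outside it Apln at 0.80.

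**Figure D1:**
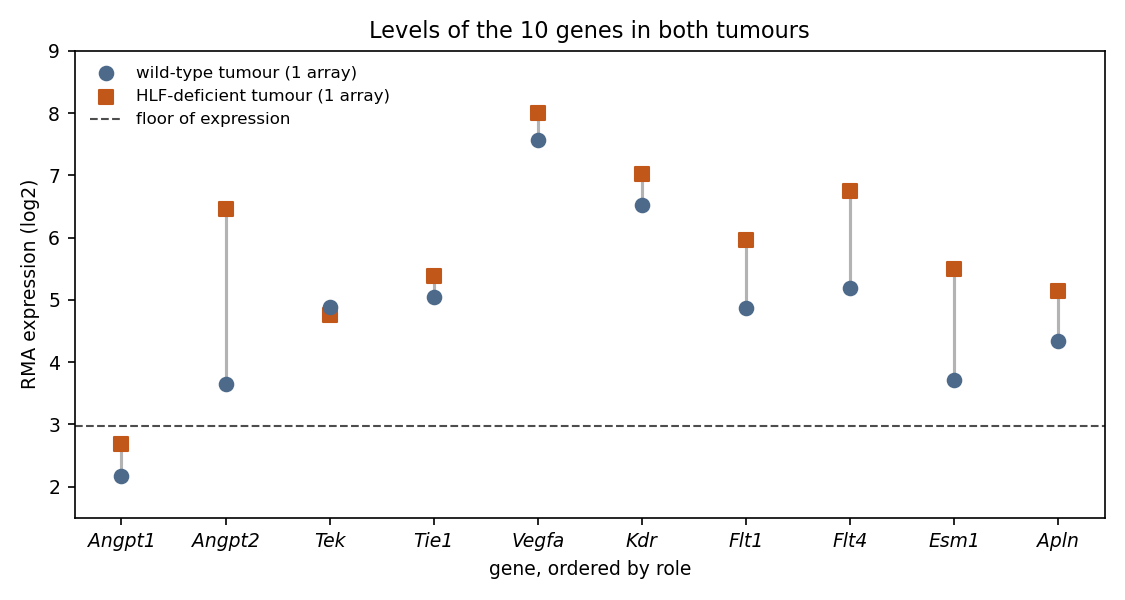
RMA expression (log2, vertical axis) of the 10 genes in the wild-type tumour (circles) and the HLF-deficient tumour (squares), 1 array each, with a dashed line at the floor of 2.98. The symbols lie farthest apart for Angpt2 (3.66 and 6.46) and nearly coincide for Tek (4.89 and 4.76), while both symbols of Angpt1 lie below the line; heights of different genes cannot be compared, because probe sets differ in response.

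The 2 angiopoietin ligands stood in contrast. Angpt2, the endothelial antagonist of Tie2, stood at 3.66 in the WT tumour, 0.68 above the floor, and at 6.46 without HLF. It went from a dim to a clearly detected signal, a difference of 2.80 or 6.98-fold, and 4 genes of the 14575, itself among them, had a measured difference at least as large. Angpt1, the stabilising agonist, had levels of 2.18 and 2.69, both under the floor, so no fold is given for it. Angpt4, the remaining ligand of this family, was level at 3.65 on both arrays, a difference of 0.01.

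The Tie receptors did not share the difference of Angpt2. Tek, the receptor of both angiopoietins, had levels of 4.89 (WT) and 4.76 (HLF-deficient), a difference of -0.13, which is within 1 SD of the technical guide. Tie1, an orphan co-receptor that pairs with Tie2, had levels of 5.05 and 5.38, a difference of 0.33. Ptprb, the endothelial phosphatase that restrains Tie2, was level at 6.82 and 6.86. The difference of Angpt2 was larger than that of Tek by 2.94 on the log2 scale, or 7.66-fold. Adding a constant to either array does not alter this comparison. Transcript levels say nothing here of protein or of receptor activation.

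Angpt2 lies within the gene Mcph1 by RefSeq's annotation of GRCm38.p6. Mcph1 had levels of 4.19 and 4.45, a difference of 0.26, and Agpat5 and Csmd1, the nearest measured genes on either side, differed by 0.37 and -0.33. The large value of Angpt2 was therefore not shared by the measured genes around it. By a fixed rule the 3 expressed genes with the difference closest to that of Angpt2 were also sought among 13712 genes above the floor on both arrays. They were the gene model BC023105 at 2.83, the acute phase gene Saa3 at 2.94 and the inducible chaperone Hspa1a at 2.66. With only 2 arrays such likeness is a similar size of difference and nothing more.

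**Figure D2:**
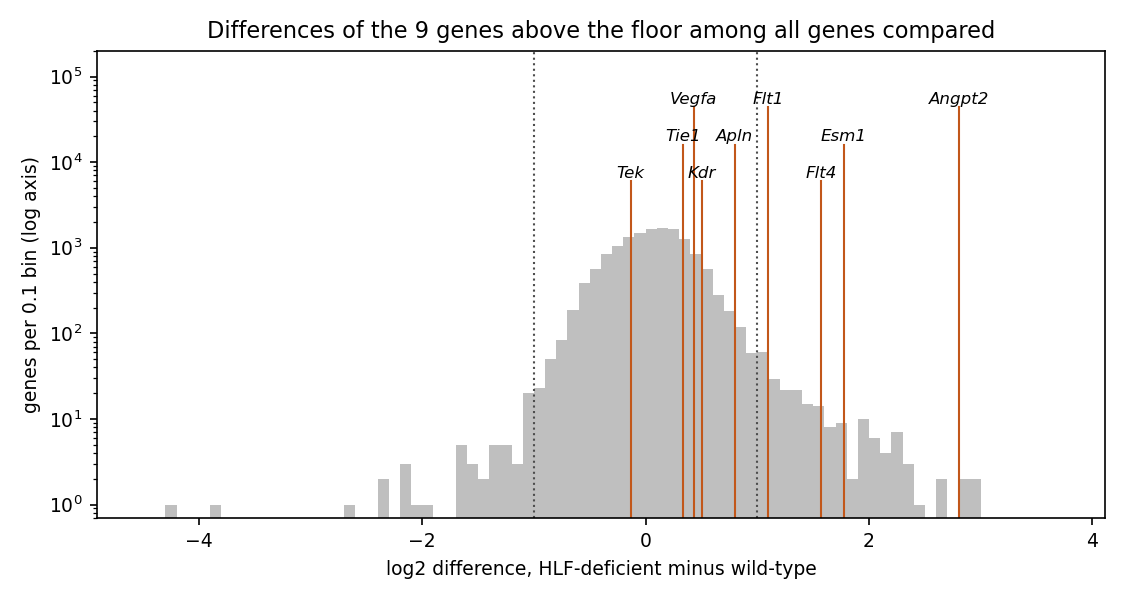
Histogram of the log2 difference (HLF-deficient minus wild-type, horizontal axis, bins of 0.1) of the 14575 genes compared, with the number of genes on a log axis; vertical lines mark the 9 expressed members and dotted lines mark 2-fold in each direction. Angpt2 at 2.80 lies near the right end, Esm1, Flt4 and Flt1 lie past 2-fold, and Tek lies left of 0.

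The 3 VEGF receptors were all higher in the HLF-deficient tumour, to unequal extents. Flt4, the receptor for VEGF-C and VEGF-D, had levels of 5.18 and 6.75, a difference of 1.57 or 2.96-fold. Flt1, the VEGF-A decoy receptor, had levels of 4.87 and 5.96, a difference of 1.09 or 2.14-fold, which fell to 0.97 after quantile normalization and 0.98 after removal of a loess trend, just under 2-fold. Kdr, the main signalling receptor, had levels of 6.52 and 7.02, a difference of 0.51 or 1.42-fold. The difference of Flt4 was larger than that of Kdr by 1.06 on the log2 scale, and the difference of Flt1 by 0.59. Kit, a receptor kinase gene next to Kdr in the gene order, was higher by 1.30, with levels of 4.13 and 5.43; it was looked at because it neighbours Kdr.

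The sequences upstream of Flt4, Flt1 and Kdr are shown because the 3 receptors differed unequally. They are from RefSeq, build GRCm38.p6, each 250 bases ending just before the annotated start and read 5′ to 3′ along the gene. Flt4 is on the plus strand (chr11:49609429-49609678), Flt1 on the minus strand (chr5:147726012-147726261) and Kdr on the minus strand (chr5:75978456-75978705). Capitals mark any match, on either strand, to the motifs searched: the HLF D-box TTANGTAA, AP-1 as TGANTCA, the hypoxia response core as ACGTG or GCGTG, the ETS core as AGGAAG or CGGAAG, the site of GATA factors as AGATAA, forkhead as TGTTTAC, and the cAMP response element TGACGTCA, which was added after the sequences were seen.
Flt4: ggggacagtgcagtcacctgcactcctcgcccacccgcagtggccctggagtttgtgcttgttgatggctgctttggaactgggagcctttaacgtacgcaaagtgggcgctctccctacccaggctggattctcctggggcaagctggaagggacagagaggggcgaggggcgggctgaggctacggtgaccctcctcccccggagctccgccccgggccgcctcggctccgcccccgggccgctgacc
Flt1: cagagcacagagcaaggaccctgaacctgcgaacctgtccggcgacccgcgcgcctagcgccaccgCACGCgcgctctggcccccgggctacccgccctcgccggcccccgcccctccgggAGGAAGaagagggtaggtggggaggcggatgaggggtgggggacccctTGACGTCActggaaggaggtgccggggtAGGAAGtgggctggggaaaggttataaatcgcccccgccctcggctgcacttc
Kdr: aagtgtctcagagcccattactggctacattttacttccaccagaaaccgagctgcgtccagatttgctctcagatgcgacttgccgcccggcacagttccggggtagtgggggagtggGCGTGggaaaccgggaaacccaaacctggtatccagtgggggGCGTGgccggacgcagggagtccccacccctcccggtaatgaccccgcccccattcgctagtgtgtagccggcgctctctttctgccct

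The 3 windows held different motifs. Flt1 had 2 matches to the ETS core, which begin 129 and 53 bases before the start, 1 to the cAMP response element at 81 and 1 to the hypoxia core at 184. Kdr had 2 matches to the hypoxia core, at 131 and 89 bases before the start, and Flt4 had no match to any of the motifs. Of the 10 genes, 8 were found in the promoter table, with 9 starts in all. No start matched the HLF D-box, AP-1 or forkhead letters within its 250 bases. Over the 32851 promoters of the same length in the table, 39.2% held the ETS core, 38.6% the hypoxia core, 9.99% GATA, 6.75% AP-1, 3.17% forkhead, 2.06% the D-box and 1.55% the cAMP response element. Among the 9 starts, 4 held the hypoxia core (Esm1, Flt1, Kdr and a start of Vegfa), 3 the ETS core (Apln, Flt1 and Tie1), and 1 GATA (the other start of Vegfa). Vegfa is on the minus strand, and its window with the hypoxia core (chr17:46025164-46025413) lies downstream of its other window (chr17:46032378-46032627). The upstream window of Vegfa had no match to the hypoxia core. Such matches are letters in a window and not evidence of binding.

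The ligands of the VEGF receptors differed unequally too. Vegfa, which hepatocytes and other cells secrete, had levels of 7.57 and 8.0, a difference of 0.43 or 1.35-fold. Pgf, a ligand of VEGFR1 alone, had the largest difference of the ligands, 0.95, with levels of 3.74 and 4.68. That difference passed 2-fold with the arrays centred on their medians, at 1.07, and after loess normalization, at 1.01, where it exceeded the 0.98 of Flt1. Vegfc, a ligand of VEGFR3, was higher by 0.62 and Vegfb, another VEGFR1 ligand, by 0.32. Vegfd, the other VEGFR3 ligand, was dim, with levels of 3.40 and 3.11. Its difference of -0.28 shrank to -0.12 after quantile or loess normalization, within 1 SD of the technical guide. Nrp1, a co-receptor that strengthens VEGF-A binding to VEGFR2, was higher by 0.97 (levels of 6.40 and 7.37), or 1.09 with the arrays centred; its relative Nrp2, a partner of VEGFR3, was higher by 0.42.

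In a list of 13 partners, the ligands, co-receptors and regulators of both pathways held 0 genes past 2-fold in either direction among the 12 expressed. Their median difference was 0.15 against 0.07 for all genes. Nrp1 and Pgf were the highest, and Ccbe1, which helps to process VEGF-C, was the lowest at -0.48. Of 15 expressed signalling intermediates below the receptors, 0 passed 2-fold, with Nck1 highest at 0.45 and Nos3, the endothelial nitric oxide synthase, lowest at -0.20. The angiopoietin-like proteins, which resemble angiopoietins but do not bind Tie2, had 0 of 4 past 2-fold, with Angptl8 at 0.50 and Angptl7 at -0.38.

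Both tip cell genes among the members were higher in the HLF-deficient tumour. Esm1, a proteoglycan gene (endocan) that VEGF induces in sprouting endothelium, had levels of 3.71 and 5.49, a difference of 1.77 or 3.42-fold. It was dim in the wild-type tumour, at 0.74 above the floor, and 42 of all genes had a difference at least as large. Apln, the secreted peptide apelin of tip cells, had levels of 4.34 and 5.14, a difference of 0.80 or 1.74-fold. Aplnr, the receptor of apelin, had levels of 3.40 and 3.18; its difference of -0.22 was within 1 SD of the technical guide and shrank to -0.06 after quantile or loess normalization.

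The upstream sequences of Esm1 (chr13:113209409-113209658, plus strand) and Apln (chrX:48034854-48035103, minus strand) are given in the same way, because these genes mark the same cell state but have unlike start regions. The window of Esm1 held 44.0% G and C, below the 52.4% median of all promoters in the table, and that of Apln held 65.2%. Esm1 had 1 match to the hypoxia core, which begins 47 bases before the start, and Apln had 1 to the ETS core at 113 bases; the capitals mark them.
Esm1: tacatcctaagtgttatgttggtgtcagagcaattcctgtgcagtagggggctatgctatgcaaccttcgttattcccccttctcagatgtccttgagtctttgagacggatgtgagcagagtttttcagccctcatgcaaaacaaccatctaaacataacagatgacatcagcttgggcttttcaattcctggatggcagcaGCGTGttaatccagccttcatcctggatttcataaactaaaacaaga
Apln: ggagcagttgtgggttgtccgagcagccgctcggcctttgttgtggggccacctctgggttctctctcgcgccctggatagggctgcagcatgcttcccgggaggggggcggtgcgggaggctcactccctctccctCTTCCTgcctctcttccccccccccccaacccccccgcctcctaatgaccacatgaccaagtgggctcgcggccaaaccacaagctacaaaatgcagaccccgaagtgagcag

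Other genes of the tip cell programme were read from a list that did not include the 10 members. All 22 listed genes were expressed, 11 were higher by 2-fold and 0 were lower, with a median difference of 1.07 against 0.07 over all genes and a share of 1.5% higher by 2-fold among all genes. Of the 11, 3 (Kcne3, Trp53i11 and Adm) were known to be high when the list was written. Without them 8 of 19 were higher by 2-fold, with a median of 0.77. These 19 were also listed with earlier results of these data known, so neither count is independent of the values. The largest values belonged to Trp53i11, a p53-induced membrane protein gene, with levels of 5.88 and 8.18 (4.91-fold). The potassium channel subunit gene Kcne3 went from 3.28 to 5.57 (4.90-fold). Igfbp3, which binds insulin-like growth factors, went from 5.86 to 8.12 (4.81-fold). Cxcr4, a chemokine receptor of tip cells and also of many leukocytes, went from 3.83 to 5.87 (4.12-fold).

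The remaining 7 of the 11 were named after their values were seen. Lxn differed by 1.91, Mcam, an adhesion molecule of endothelium and pericytes, by 1.66 and Cd34, a sialomucin of capillary endothelium, by 1.58. Lama4, a laminin chain of vessel basement membrane, differed by 1.36, Adm, the vasoactive peptide adrenomedullin, by 1.19, Dll4, the Notch ligand of tip cells, by 1.18 and Fscn1, an actin bundler of filopodia, by 1.14. All 11 kept a difference above 1 when the arrays were centred, quantile normalized or freed of a loess trend. The list was not uniform: Ramp3, Rgcc and Aqp1 were at -0.27, -0.17 and -0.02. Several listed genes are made by other cells as well, Igfbp3 by several kinds of non-parenchymal liver cell and Fscn1 by dendritic cells, and a bulk tumour sample cannot assign them.

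The Notch and stalk cell list did not show the size seen for Dll4. Of 10 expressed members, 0 passed 2-fold in either direction, and the median was 0.18. Rbpj, the transcription factor of the pathway, was highest at 0.56 and Lfng, a glycosyltransferase that tunes Notch receptors, lowest at -0.05. Notch1 and Notch4, the endothelial receptors, differed by 0.21 and 0.15, and the Notch target genes Hey1 and Hes1 by 0.54 and 0.23; these 4 were named after their values were seen.

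**Figure D3:**
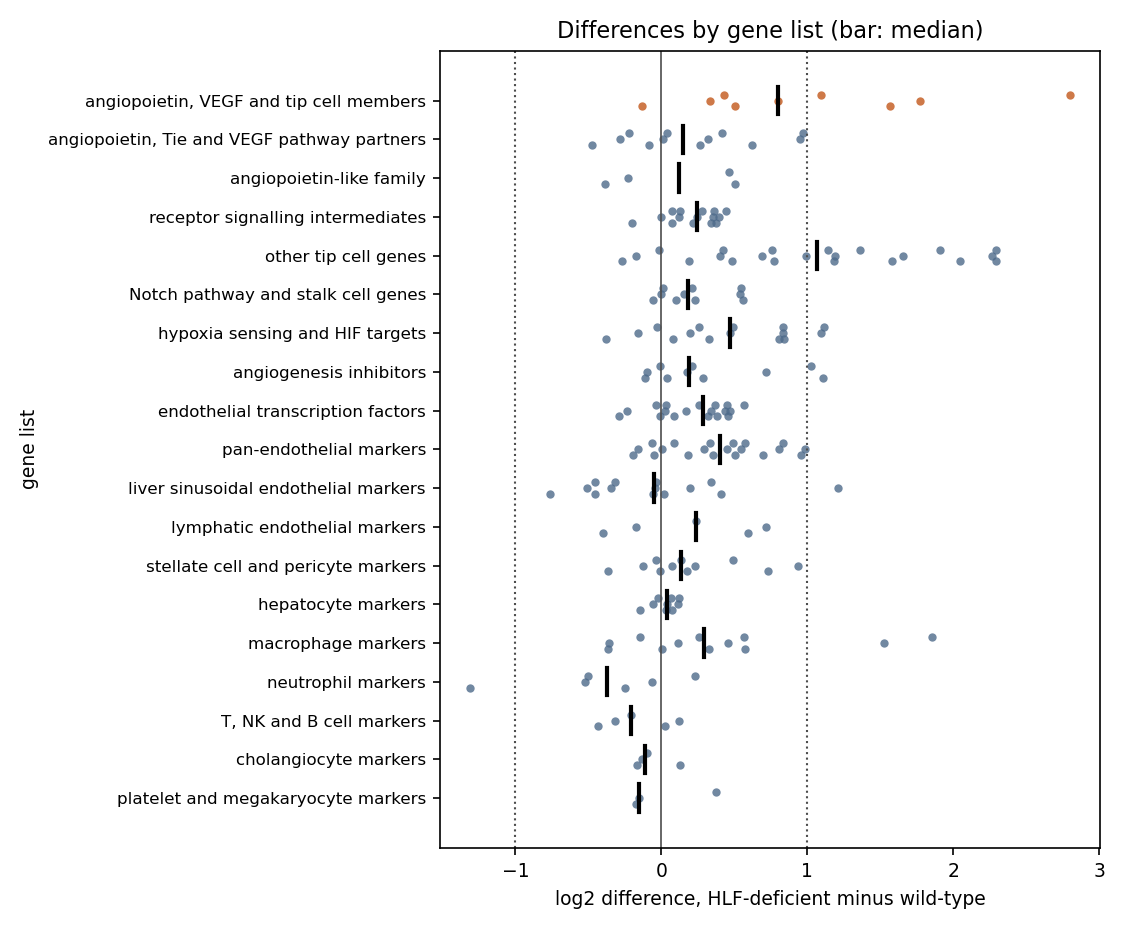
Log2 difference (HLF-deficient minus wild-type, horizontal axis) of each expressed gene in the members (top row) and in the 18 gene lists (rows), with a bar at each median and dotted lines at 2-fold. The other tip cell genes have a median of 1.07, the members 0.80 and the pan-endothelial markers 0.40, while liver sinusoidal markers have a median of -0.05.

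Markers of endothelium in general were compared next. In a bulk sample more cells of a type and more RNA per cell cannot be told apart. All 20 pan-endothelial markers were expressed, 16 were higher and 4 lower, against 58.2% higher over all genes, and 0 passed 2-fold. Their median was 0.40 and their summed level, with log2 values turned back to the linear scale, 890.2 (WT) and 1241 (HLF-deficient). Emcn, a sialomucin, was highest at 0.98 and Arhgef15 lowest at -0.19; Cdh5, the junction protein VE-cadherin, had 0.95. With the arrays centred Emcn and Cdh5 passed 2-fold at 1.10 and 1.08.

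Relative to the median of the 19 pan-endothelial markers that are not members, 0.45, the members separated. Angpt2 stood above it by 2.35 on the log2 scale (5.11-fold), Esm1 by 1.33, Flt4 by 1.12, Flt1 by 0.65 and Apln by 0.35. Kdr was within 0.06 of that median, Vegfa at -0.02 and Tie1 at -0.12, while Tek was below it by 0.58 (a difference of -0.58). These distances do not depend on a constant added to either array, but they do depend on the markers chosen.

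Markers of the sinusoidal endothelium of normal liver did not follow the members. Of 14 expressed markers, 5 were higher and 9 lower, against 58.2% higher over all genes, with a median of -0.05. It turned to 0.07 when both arrays were centred and to -0.24 and -0.21 under quantile and loess normalization. Lyve1, a hyaluronan receptor shared with lymphatic endothelium, was the 1 marker past 2-fold, with levels of 5.16 and 6.37 (2.31-fold). Clec4g, a sinusoidal lectin, was lowest at 7.82 and 7.05, a difference of -0.76. Stab2 and Stab1, the sinusoidal scavenger receptors, differed by -0.06 and 0.20 and were named after their values were seen. Because Flt4 and Lyve1 also mark lymphatic vessels, lymphatic markers were listed: 0 of 5 expressed markers passed 2-fold, Fgl2 was highest at 0.72 and Pdpn, the podoplanin of lymphatic endothelium, was lowest at -0.40. Mmrn1, another lymphatic marker, was below the floor on both arrays. Several genes of this list are made by other cells as well, and a bulk sample cannot assign them to lymphatic vessels.

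Endothelial transcription factors all differed by less than 2-fold. Of 18 expressed, 14 were higher and 4 lower, against 58.2% higher over all genes, with a median of 0.29 against 0.07. Ets2 was highest at 0.57 and Lyl1 lowest at -0.29.

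Hypoxia is a known inducer of Vegfa, Angpt2, Apln and Esm1, so genes of oxygen sensing were listed. Of 15 expressed, 2 were higher by 2-fold and 0 were lower, with a median of 0.47. Over all genes 1.5% were higher by 2-fold and the median was 0.07. P4ha1, a collagen prolyl hydroxylase, went from 4.53 to 5.64 (2.16-fold) and Egln3, an oxygen-sensing hydroxylase, from 3.34 to 4.43 (2.13-fold). Car9 was lowest, at 3.21 in the WT tumour and under the floor without HLF, which is 1.18-fold lower as measured against the floor. Its measured difference of -0.38 became -0.22 after quantile or loess normalization, within 1 SD of the technical guide. Hif1a and Epas1, the oxygen-regulated transcription factor subunits, differed by 0.33 and -0.03, named after their values were seen. By 1.5-fold, 6 of the 15 were higher and 0 lower, against 6.37% higher over all genes. Slc2a1, Ndrg1, Ankrd37 and Ero1a differed by 0.84, 0.83, 0.83 and 0.80, Bnip3 by 0.25 and Pdk1 by -0.16, also named after their values were seen. A negative difference was measured for 3 of the 15. The part of this list in the values of the members was not tested. Among angiogenesis inhibitors 2 of 10 expressed were higher by 2-fold, against 1.5% of all genes, and 0 lower. They were Thbs1, the matrix protein thrombospondin-1, at 2.16-fold (levels of 4.28 and 5.39) and Timp3, a protease inhibitor that also blocks VEGFR2, at 2.04-fold. Timp3 was at 0.88 and 0.89 after quantile and loess normalization. Serpinf1 was lowest at -0.11.

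Markers of other cells in the tumour were read beside the members. Stellate cells and pericytes, the source of angiopoietin-1, had 0 of 11 expressed markers past 2-fold and a median of 0.13; their summed linear level was 667.2 and 773.9. Rgs5, a pericyte gene, was highest at 0.94 (1.06 with the arrays centred) and the pericyte proteoglycan gene Cspg4 lowest at -0.37. Macrophage markers had 2 of 12 higher by 2-fold, Cd14 at 3.62-fold and Cd68 at 2.88-fold, against 1.5% of all genes. Their median was 0.29 and their summed linear level 882.6 and 1193, with the Kupffer cell gene Clec4f lowest at -0.37. Macrophages can express Flt1, and their part in the values of Flt1 and of Vegfa was not tested.

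Markers of other leukocytes were mostly dim. Of 9 measured T, NK and B cell markers, 4 (Cd3d, Ncr1, Cd79a and Ms4a1) were below the floor on both arrays, and the other 5 ran from Cd3e at -0.43 to Cd4 at 0.12; the summed linear level was 100.3 (WT) and 86.1 (HLF-deficient). Of 9 neutrophil markers, 3 (Ly6g, Cxcr2 and Mmp8) were below the floor on both arrays, and the expressed 6 had a median of -0.37 and a summed level of 102.9 and 82.6 over all 9. Ngp was the 1 neutrophil marker past 2-fold in its measured value, from 3.26 to under the floor. Measured against the floor it was 1.21-fold lower, a bound that carries technical spread too. Retnlg was highest at 0.23. Cholangiocyte markers had 0 of 4 expressed past 2-fold (Epcam at 0.13, Krt19 at -0.17), with Cftr below the floor on both arrays. Markers of platelets, which store angiogenic factors, had 0 of 3 past 2-fold, with Ppbp at 0.38 and Itga2b at -0.17. The part of any of these cells in the values of Cxcr4 or the other tip cell genes was not tested.

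The order of the 9 expressed members by difference was Angpt2, Esm1, Flt4, Flt1, Apln, Kdr, Vegfa, Tie1 and Tek. With an SD of 0.24 for a single probe set, the gap between 2 of them has an SD of 0.34, and 5 of the 8 gaps between neighbours in this order were smaller. They were those from Esm1 to Flt4 (0.21), Flt1 to Apln (0.30), Apln to Kdr (0.29), Kdr to Vegfa (0.07) and Vegfa to Tie1 (0.10). The gaps from Angpt2 to Esm1 (1.03), Flt4 to Flt1 (0.47) and Tie1 to Tek (0.47) were larger.

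**Figure D4:**
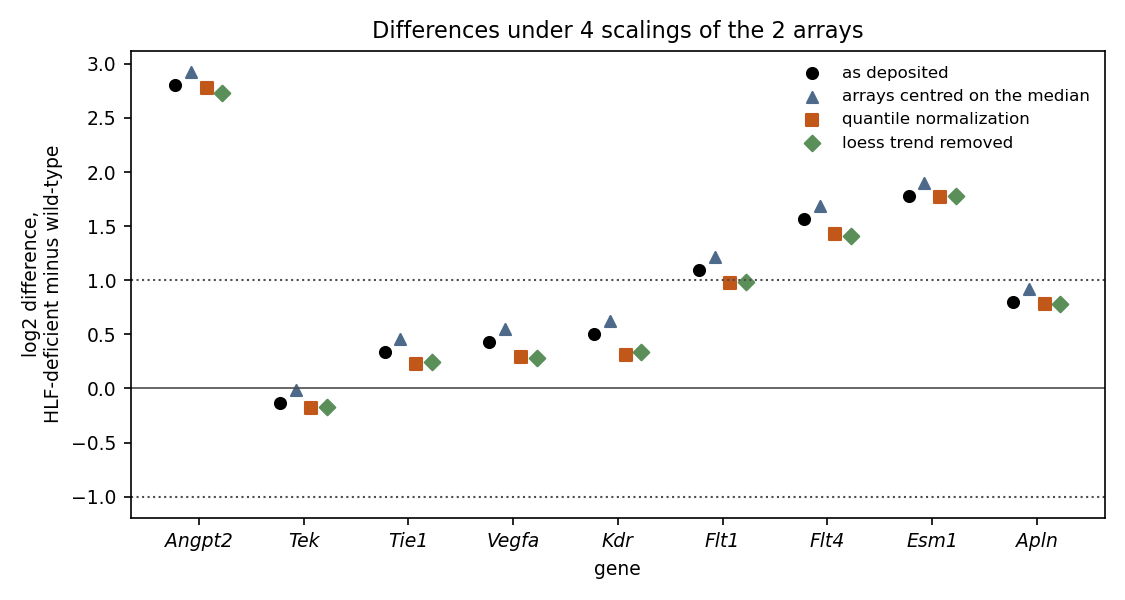
Log2 difference (HLF-deficient minus wild-type, vertical axis) of the 9 expressed genes with the values as deposited, with each array centred on its median, after quantile normalization and after removal of a loess trend; dotted lines mark 2-fold. Angpt2 stays between 2.73 and 2.92, Flt1 lies on both sides of 2-fold (0.97 to 1.22), and Tek stays below 0 (-0.18 to -0.01).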

How the data were processed

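The authors' values came from RMA, run in Affymetrix Expression Console per the submitters' processing notes. The deposited values were taken as log2 from their range (0.25 to 12.7 and 0.37 to 12.7), as no source used here states the scale. Biotin-labelled cDNA was hybridised to whole-transcript arrays, per the labels' protocols. No source used here says whether both arrays went through RMA as 1 set. RMA compresses differences near background. The number of arrays, 1 per genotype, limits the precision.

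Of 35556 probe sets, 21789 named exactly 1 gene in the platform annotation, 1621 several and 12146 none; only the first kind was used. For genes with several probe sets the brightest was taken. The floor came from 1243 chemoreceptor probe sets, over both arrays. Symbols were matched by gene identifier to RefSeq GRCm38.p6 (21698 found). Genes named by rule are the members and, from each list, up to 4 a direction past 2-fold or else the highest and lowest. Other list genes fall outside this rule, and only some of them are marked as named after their values were seen. Of 225 genes in the 18 lists, 212 had a single-gene probe set. The members and lists were chosen with earlier results of these data known. The 2-fold rule and the scalings were tested on simulated data. Alternatives were 3 scalings, the mean of probe sets, floors at the 90th and 99th percentiles or imposed on the values, and rules of 1.5-fold and 4-fold. Python 3.11.15, numpy 2.4.6, pandas 2.3.3 and statsmodels 0.14.6 (loess span 0.4) were used.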

Additional observations from a re-analysis of the deposited data

How the results depend on the processing

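Quantile and loess normalization kept the direction of all 9 expressed members, with shifts under the technical SD of 0.24. Centring adds 0.12 to each difference, which leaves Tek at -0.01. The 4 alternatives of probe sets and floor cannot move these 9, which have 1 probe set each and lie above the floor of 2.98 on both arrays. At the 99th percentile the floor is 3.78, above the wild-type levels of Angpt2 and Esm1, whose folds would then be lower bounds. Flt1 alone crossed the 2-fold rule, so 3 in place of 4 members were higher by 2-fold after quantile or loess normalization. The rule of 1.5-fold gave 5 higher members, and that of 4-fold gave 1, Angpt2; 0 were lower under any setting. Over all genes, 929 were higher and 454 lower by 1.5-fold, and 27 higher and 9 lower by 4-fold. With the arrays centred, 32 genes were lower and 294 higher by 2-fold, and the median of all genes moved from 0.07 to 0.20. With the floor at the 90th percentile Angpt1 entered the comparison, at a difference of 0.51. The 11 tip cell genes past 2-fold became 12 with the arrays centred, when Plxnd1 reached 1.11. No paired analysis was possible because each genotype has 1 array. Signal over background limits Angpt1 and, in the wild-type tumour, Angpt2 and Esm1. It also limits Kcne3, Lxn, Adm, Lama4 and Egln3, with wild-type levels of 3.28, 3.34, 3.53, 3.67 and 3.34. Under the 99th percentile floor of 3.78 their folds would be lower bounds too.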
